A study of Daphnia magna with 15 samples.

Results

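Eicosanoids are signalling lipids made from long-chain polyunsaturated fatty acids such as arachidonic acid and eicosapentaenoic acid (EPA). Phospholipases A2 release these fatty acids from membrane lipids, cyclooxygenases and lipoxygenases oxygenate them, and downstream synthases, hydrolases and reductases turn the products into prostaglandins and leukotrienes or break them down. Receptors coupled to G proteins then read the signal, and in arthropods prostaglandins are best known for roles in egg development and immunity. The genes described here are those of *Daphnia magna*, a planktonic crustacean, whose annotated product name contains prostaglandin, thromboxane, leukotriene, lipoxygenase, cyclooxygenase or phospholipase A2. The annotation held 25 such genes among 26646: 9 phospholipases A2, 1 lipoxygenase, 1 cyclooxygenase, 5 prostaglandin synthases, 2 prostaglandin reductases, 2 leukotriene A4 hydrolases and 5 receptors. No product name contained thromboxane. The names are the only evidence used for membership.

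The animals belonged to 1 clone, P132.85, were kept at 15 °C and were sampled whole as mothers that had just laid their first clutch of eggs. They were raised from birth on 1 of 5 diets, with 3 RNA-seq libraries per diet. GA was the EPA-free green alga *Acutodesmus obliquus* and CY the EPA-free cyanobacterium *Synechococcus elongatus*, and GA+EPA and CY+EPA were the same foods with EPA supplied in liposomes. CRY was *Cryptomonas*, a food that contains EPA naturally. By the methods, the CY diets also received alpha linoleic acid and cholesterol, and the sequenced GA animals received empty liposomes, so that a comparison of CY with GA does not isolate the alga from the cyanobacterium. Each library came from a pool of whole animals, for which the labels give 3 specimens and the protocol 5. In whole animals, fewer cells of a type and less RNA per cell cannot be told apart.

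Library totals ranged from 18062681 to 22287959 expected counts, the read-pair estimates assigned to genes. GA+EPA replicate 1 and CY replicate 1 lay farthest from the mean of their diet, by 0.441 and 0.474 (root mean square over genes, log2 scale). The sum of 18 vitellogenin genes, which encode yolk proteins, ranged from 9181 to 14640 CPM in GA, from 24190 to 46260 in GA+EPA and from 68220 to 147700 across CY, CY+EPA and CRY. CPM are counts scaled to a common library total. The sum of 36 trypsin and chymotrypsin genes, enzymes of the gut, was at 5913 CPM in GA+EPA replicate 1 and 4207 in CY+EPA replicate 2, against 7410 to 17990 in the other libraries. The part of these differences in the results below was not tested, except where a value is given.

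Per length of transcript, levels ranged widely, with the receptors and 1 prostaglandin synthase (KZS14639.1, 0.510 FPKM) below 1 FPKM. The FPKM of KZS04037.1, named prostaglandin D2 synthase-like, averaged 262.5 over the 15 libraries, above 98.4% of all genes. The lipoxygenase-like gene KZS06107.1 (111 FPKM), the prostaglandin reductase 2 KZS20464.1 (99.2) and the leukotriene A(4) hydrolase KZS18502.1 (87.8) followed. All 5 receptors were below 1 FPKM, from 0.583 for KZS02991.1, named as prostaglandin E2 receptor EP4, to 0.084 for KZS13723.1, named as cysteinyl leukotriene receptor 1. In all, 19 of the 25 genes lay above the median gene, and 22 passed the filter on low counts over all libraries. The 3 that did not pass were receptors (KZS13558.1, KZS18974.1 and KZS13723.1).

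**Figure D1:**
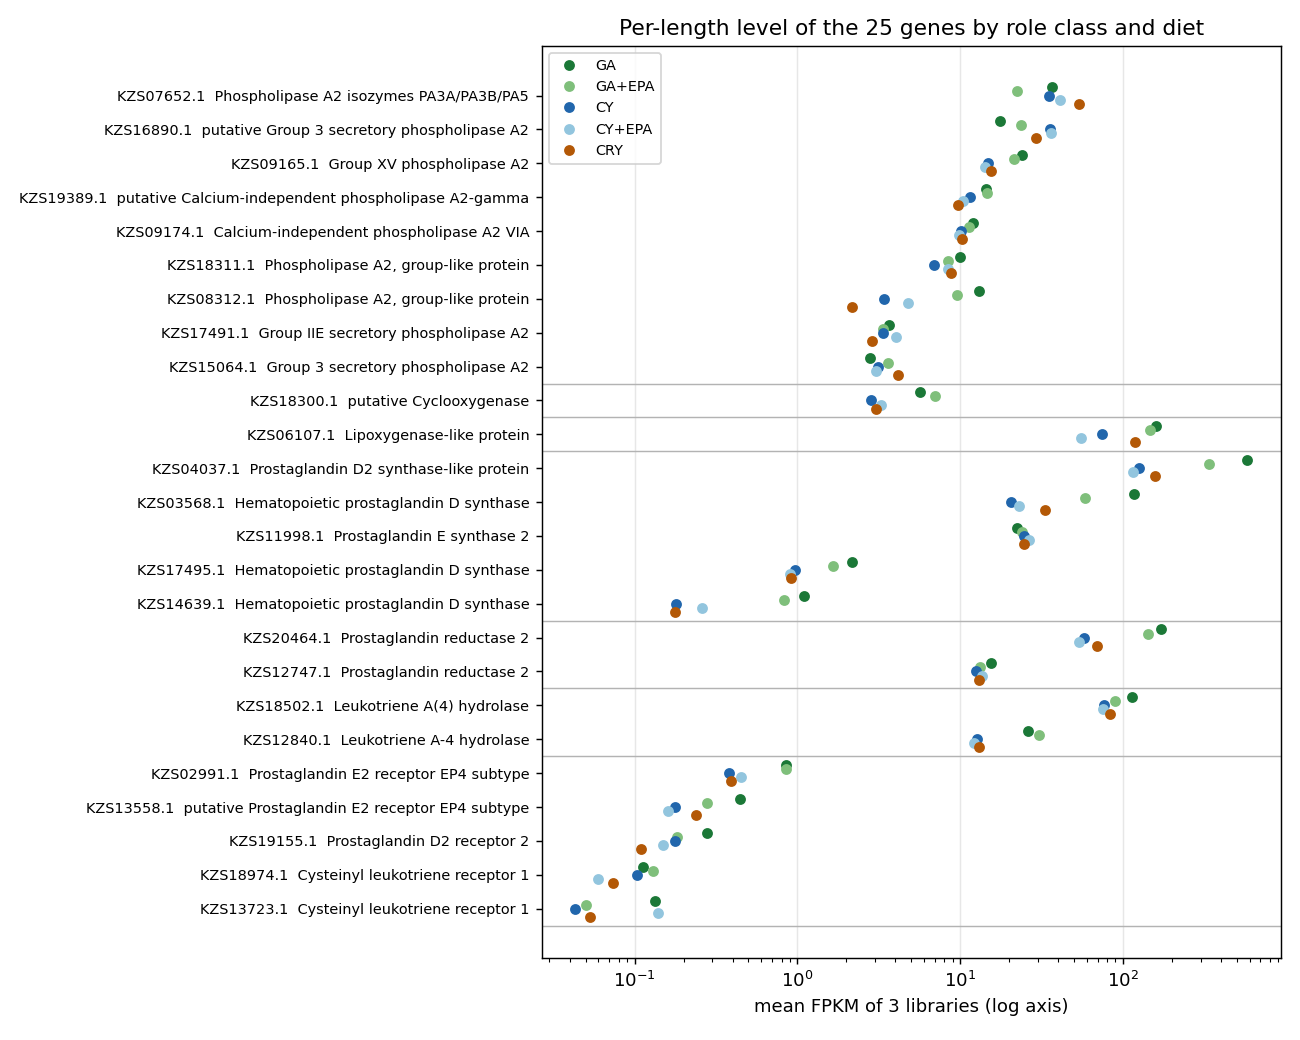
Mean FPKM of 3 libraries (x axis, log scale) for each of the 25 genes, grouped by role and coloured by diet. The receptors at the bottom all lie below 1 FPKM, and KZS04037.1 reaches the highest level, 262.5 FPKM over all libraries.

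The names were compared with the orthologous group (artNOG) that the annotation gives for each gene. KZS04037.1, KZS03568.1 and KZS14639.1, all named as prostaglandin D synthases, fall in 1 group described by the glutathione S-transferase domain, the fold to which the haematopoietic prostaglandin D synthase of vertebrates belongs. For other genes the group goes against the name. KZS06107.1, named lipoxygenase-like, is in a group described as triacylglycerol lipase that also holds an endothelial lipase. KZS12840.1, named leukotriene A-4 hydrolase, shares its group with 22 other genes, most of them aminopeptidases N, whereas the group of KZS18502.1 is itself described as leukotriene A-4. KZS15064.1, named group 3 secretory phospholipase A2, is in a group described as putative methyltransferase. For KZS19155.1, named prostaglandin D2 receptor 2, the group is described as receptor, like the name. The rest of that group is a pair of genes named as tuftelin-interacting proteins. The putative cyclooxygenase KZS18300.1 is in a group described as animal haem peroxidase, the superfamily that includes cyclooxygenases. The 25 genes lie on 22 scaffolds. KZS18300.1 and the phospholipase A2 KZS18311.1 share a scaffold, 45733 bases apart with 10 genes between them. Reads were shared with another gene for KZS18311.1 (in 15 libraries), KZS14639.1 (12) and KZS19155.1 (11), which leaves their values uncertain.

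Diet was first asked about in 1 test per gene over all 15 libraries. It gave 6 called genes out of 22, against 8.12% of all 14981 genes tested. A gene is called here at an adjusted p of at most 0.01 in edgeR's quasi-likelihood test, with Benjamini-Hochberg adjustment over all genes tested. The 6 were the prostaglandin synthases KZS04037.1 and KZS03568.1, the prostaglandin reductase KZS20464.1, and the phospholipases A2 KZS08312.1, KZS16890.1 and KZS09165.1. Without any 1 of the GA libraries the count was 3, and that of all genes fell from 1216 to between 514 and 522. Of the 22 genes, 13 had their highest mean in GA, but the share over all genes was not computed, so this count has no background beside it.

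On the CY diet against GA, 5 of 21 genes were called, which is 23.8% of them beside 5.99% of all genes. Of these, 4 were lower and 1 higher, where 4.72% of all genes were called lower and 1.27% higher. The libraries of the groups did not overlap for 14 of the 21 genes (66.7%), beside 36.8% of all genes. The median log2 fold change was -0.53 over the 21 genes and -0.0016 over all genes. In CRY against GA, 10 of 21 were called, or 47.6% beside 16.2% of all genes. Of these, 9 were lower and 1 higher, where 9.59% of all genes were called lower and 6.62% higher. The groups did not overlap for 17 of the 21 (81.0%), beside 46.1% of all genes, and the medians were -0.40 and -0.0039. Both comparisons use the same 3 GA libraries, and so does GA+EPA against GA. The CY count fell to 1 without GA replicate 1, without GA replicate 2 and without GA replicate 3, and the CRY count to 5 without GA replicate 1 or 3 and to 6 without CRY replicate 1. The calls over all genes fell in the same fits, in CY from 854 to 122, 145 and 114, and in CRY from 2319 to 1401, 1369 and 1440. In CY the log2 fold change of KZS03568.1 without each GA library was -2.33, -2.26 and -2.45. Leaving the vitellogenin genes out of the library totals gave 5 and 10 called genes again.

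**Figure D2:**
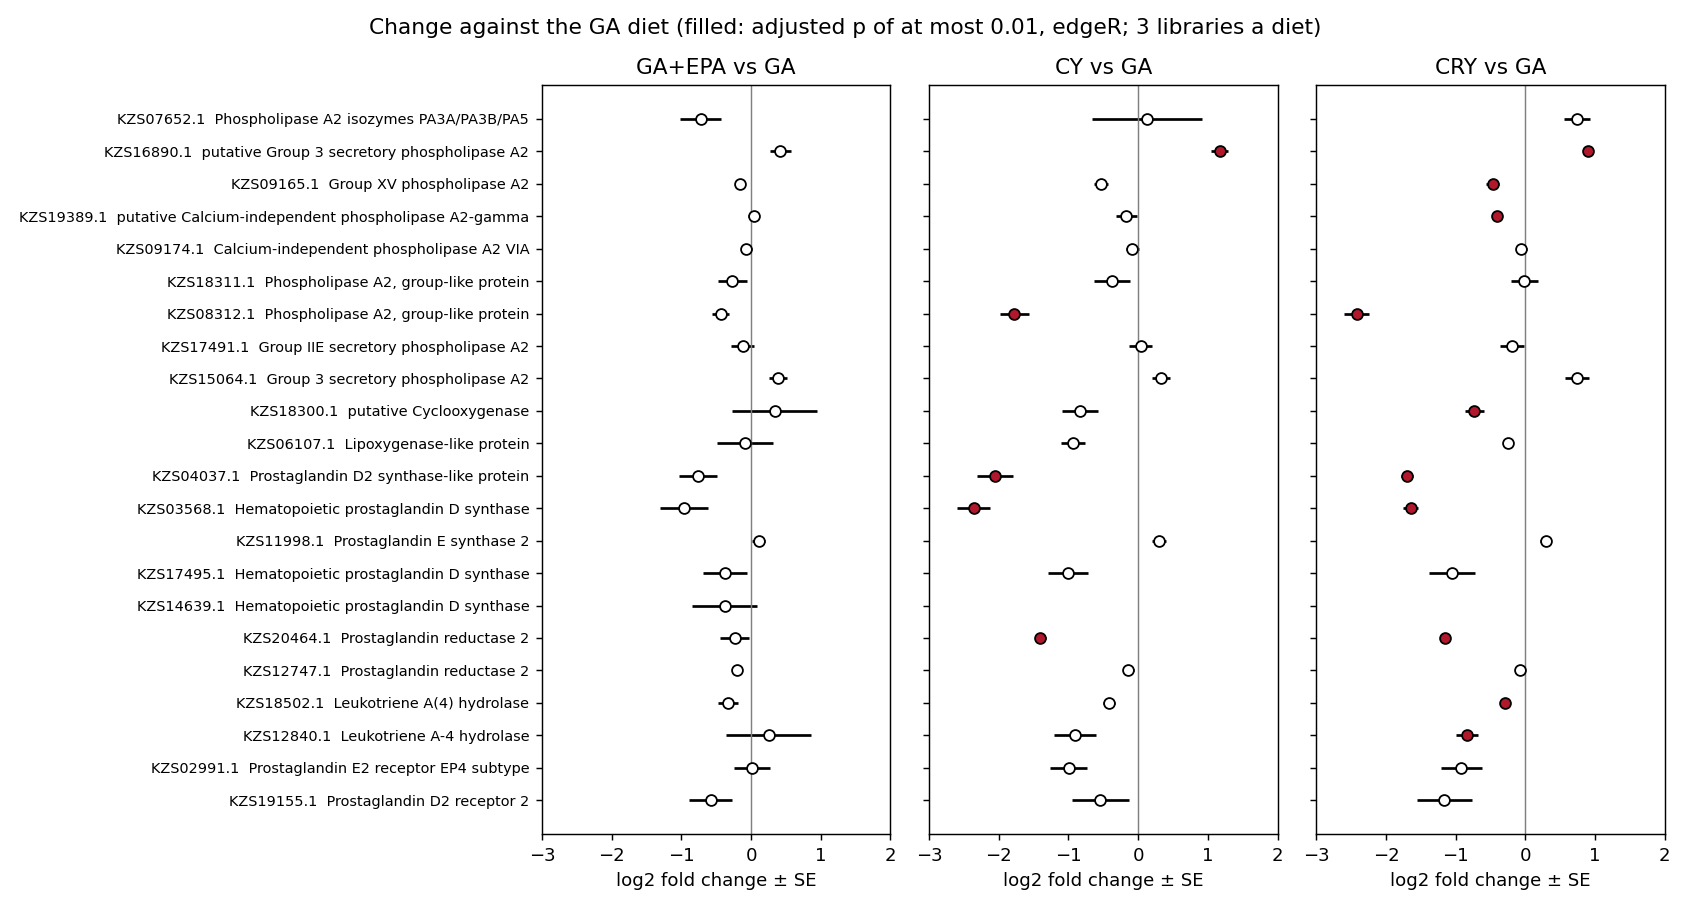
Log2 fold change with its standard error (x axis) of the tested genes, 22 in GA+EPA, 21 in CY and 21 in CRY, each against the same 3 GA libraries. Filled points passed an adjusted p of 0.01: 0 in GA+EPA, 5 in CY and 10 in CRY, with KZS16890.1 the 1 filled point to the right of 0 in CY and in CRY.

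Among the prostaglandin synthases, both of the abundant D synthases were lower in CY and in CRY than in GA. In vertebrates this enzyme uses glutathione to turn prostaglandin H2 into prostaglandin D2. KZS04037.1 (scaffold LRGB01003146.1, 251348 to 252862, plus strand) was at 358, 385 and 367 CPM in GA and at 128, 246 and 271 in GA+EPA. In CY, KZS04037.1 was at 68.7, 133 and 69.5 CPM, and in CY+EPA at 82.7, 45.04 and 121. In CRY, KZS04037.1 was at 110.4, 101 and 127 CPM. All 3 GA libraries lay above the other 12. The lowest GA+EPA library lay only just above the highest CRY library (127.6 against 127.2 CPM) and below CY replicate 2 (133), so that GA+EPA overlapped CY. CRY, CY and CY+EPA also overlapped. The log2 fold change of KZS04037.1 was -2.05 ± 0.26 (SE, adjusted p = 0.00371) in CY against GA, which is 4.15-fold lower (edgeR). It was -1.70 ± 0.09 (SE, adjusted p = 8.67e-06) in CRY against GA, or 3.24-fold lower (edgeR).

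KZS03568.1 (scaffold LRGB01003257.1, 603897 to 604823, minus strand), named haematopoietic prostaglandin D synthase, was ordered in a like way. KZS03568.1 was at 282, 322 and 251 CPM in GA and at 76.3, 151 and 204 in GA+EPA. In CY, KZS03568.1 was at 47.9, 77.9 and 43.1 CPM, and in CY+EPA at 75.6, 30.8 and 81.96. In CRY, KZS03568.1 was at 82.9, 91.8 and 95.7 CPM. Again all GA libraries lay above all others. Each CRY library also lay above each CY and CY+EPA library, but CRY against CY was not called (adjusted p = 0.274, edgeR). The log2 fold change was -2.36 ± 0.24 (SE, adjusted p = 0.00169) in CY against GA, 5.13-fold lower, and -1.65 ± 0.10 (SE, adjusted p = 2.11e-05) in CRY against GA, 3.13-fold lower (edgeR). The CY against GA calls of both D synthases were lost without GA replicate 1, 2 or 3. That of KZS04037.1 was also lost without CY replicate 3. For both D synthases the lowest library of GA+EPA was replicate 1 and the lowest of CY+EPA was replicate 2, the libraries in which the summed trypsin and chymotrypsin was lowest. The part of the gut genes in this was not tested. GA+EPA replicates 2 and 3 had protease sums of 14070 and 17990 CPM, near or above the 13540 to 14820 CPM of GA, and held less of both D synthases than any GA library.

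None of the remaining synthases was called in any comparison. KZS11998.1, prostaglandin E synthase 2, which makes prostaglandin E2 in vertebrates, stayed between 28.6 and 44.3 CPM over all 15 libraries. Its log2 fold change was 0.29 ± 0.10 (SE, adjusted p = 0.0985) in CY and 0.29 ± 0.08 (SE, adjusted p = 0.0246) in CRY, both against GA and neither called (edgeR). KZS17495.1 and KZS14639.1, also named haematopoietic prostaglandin D synthase, were at most 3.17 and 0.943 CPM in any library. KZS14639.1 did not pass the filter on low counts in CY or CRY against GA, so it was not tested there.

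The reductases of prostaglandins split. Prostaglandin reductase 2 reduces the 15-keto metabolites of prostaglandins in mammals, and the annotation holds a pair of genes of this name in 1 orthologous group. KZS20464.1 (scaffold LRGB01000190.1, 303255 to 304751, minus strand) was at 225, 225 and 215 CPM in GA and at 129, 202 and 226 in GA+EPA. In CY, KZS20464.1 was at 84.5, 89.2 and 80.9 CPM, and in CY+EPA at 83.2, 68.3 and 81.1. In CRY, KZS20464.1 was at 96.9, 102 and 97.4 CPM. GA and GA+EPA overlapped, and every library of both lay above every CRY library, which in turn lay above all of CY and CY+EPA. KZS20464.1 was 2.65-fold lower in CY than in GA (log2 -1.41 ± 0.08 (SE, adjusted p = 0.000365)) and 2.22-fold lower in CRY than in GA (log2 -1.15 ± 0.06 (SE, adjusted p = 7.02e-06), edgeR). It kept both calls under every alternative listed in the closing section, each left-out library included. The other gene, KZS12747.1, ranged only from 61.8 to 75.3 CPM. Its log2 fold change against GA was -0.14 ± 0.07 (SE, adjusted p = 0.254) in CY and -0.07 ± 0.05 (SE, adjusted p = 0.378) in CRY, neither called (edgeR).

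**Figure D3:**
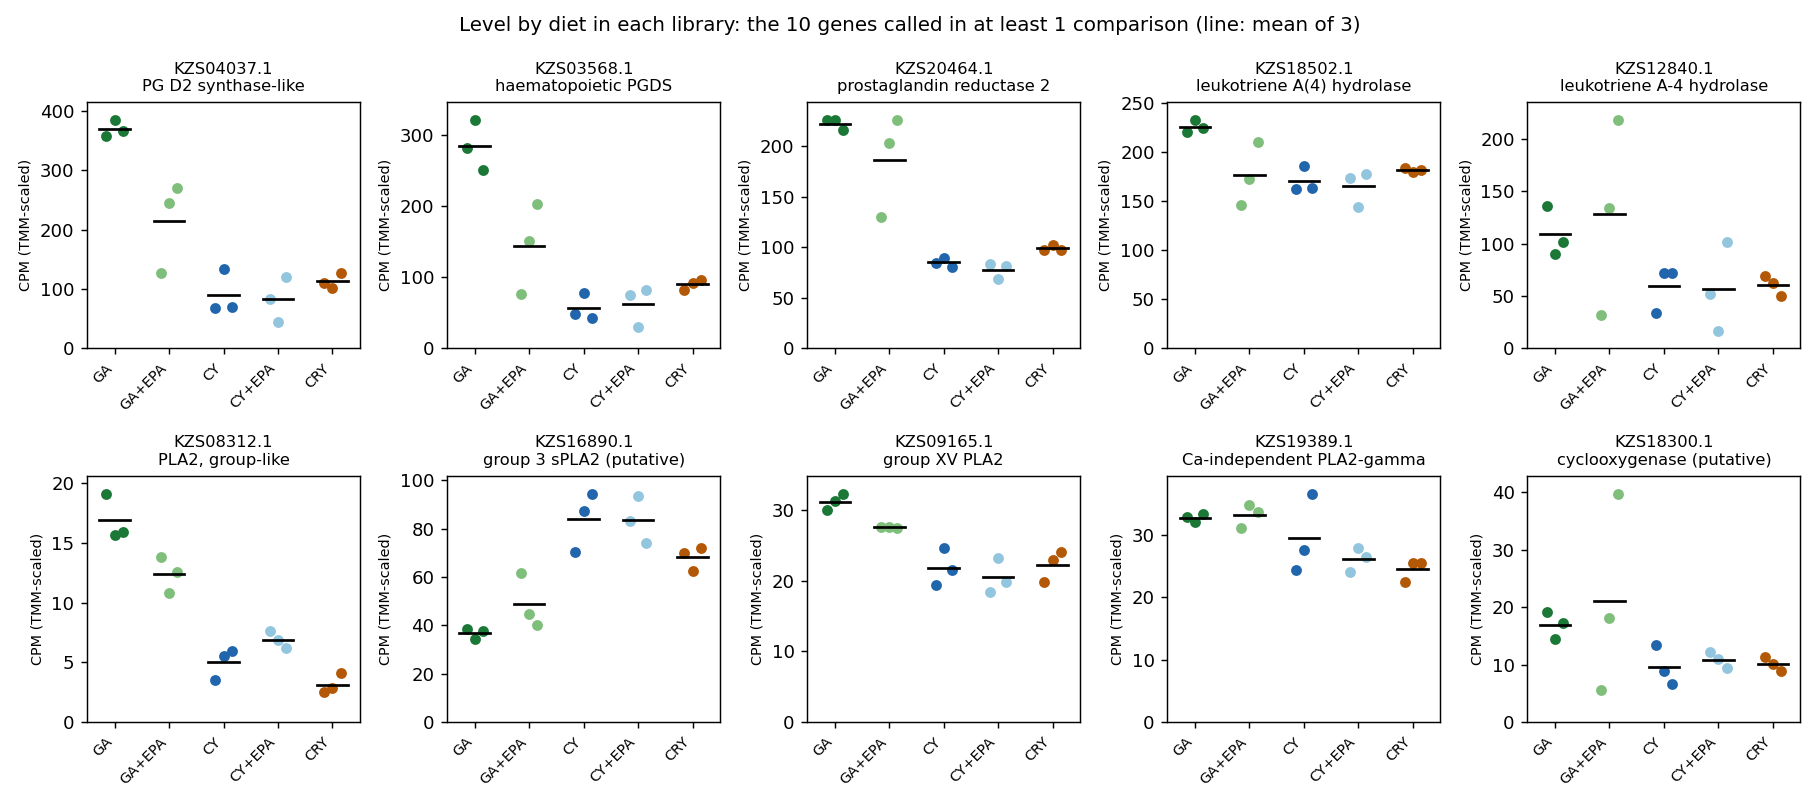
CPM (y axis, from 0) in each of the 3 libraries per diet (points) with the mean (line) for the 10 genes called in at least 1 comparison. In KZS04037.1 and KZS03568.1 all 3 GA points lie above all other points, and in KZS16890.1 all 3 lie below them.

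The phospholipases A2, which free fatty acids for the pathway, moved in both directions. In CRY against GA, 4 of the 9 were called, where 16.2% of all genes were called. KZS08312.1 (scaffold LRGB01002238.1, 1034 to 1671, plus strand), a phospholipase A2 group-like protein, was among the genes with the widest change. KZS08312.1 was at 19.1, 15.7 and 15.9 CPM in GA and at 13.8, 10.8 and 12.6 in GA+EPA. In CY, KZS08312.1 was at 3.52, 5.55 and 5.94 CPM, and in CY+EPA at 7.66, 6.90 and 6.19. In CRY, KZS08312.1 was at 2.51, 2.82 and 4.09 CPM. GA lay above GA+EPA, GA+EPA above CY+EPA and CY+EPA above CY without overlap, while CY and CRY overlapped. The log2 fold change of KZS08312.1 was -1.78 ± 0.21 (SE, adjusted p = 0.00288) in CY and -2.42 ± 0.18 (SE, adjusted p = 5.29e-05) in CRY, each against GA (edgeR). KZS08312.1 was also the 1 gene called in CRY against GA+EPA, at -1.95 ± 0.21 (SE, adjusted p = 0.00773) (log2, edgeR), where 1.57% of all genes were called. That call was lost without any 1 of the 5 libraries other than GA+EPA replicate 1.

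KZS16890.1 (scaffold LRGB01000687.1, 1457642 to 1460730, minus strand), a putative group 3 secretory phospholipase A2, the type first known from bee venom, was the 1 gene that edgeR called higher at 0.01. KZS16890.1 was at 38.5, 34.2 and 37.9 CPM in GA and at 61.6, 44.6 and 40.4 in GA+EPA. In CY, KZS16890.1 was at 70.4, 87.5 and 94.5 CPM, and in CY+EPA at 83.05, 93.5 and 74.1. In CRY, KZS16890.1 was at 69.9, 62.4 and 72.1 CPM. All GA libraries lay below all others, the reverse of the D synthases, and the highest means were those of CY and CY+EPA, which overlapped. KZS16890.1 was 2.25-fold higher in CY than in GA (log2 1.17 ± 0.12 (SE, adjusted p = 0.0018)) and 1.87-fold higher in CRY than in GA (log2 0.90 ± 0.07 (SE, adjusted p = 7.41e-05), edgeR). The summed vitellogenin also had its lowest values in the GA libraries. DESeq2 called 3 of the eicosanoid genes higher and 10 lower in CRY against GA, and 20.6% of all genes in either direction. Another gene named group 3 secretory phospholipase A2, KZS15064.1, whose orthologous group is described as putative methyltransferase, is given after its values were seen. KZS15064.1 was at 12.61, 13.80 and 14.58 CPM in GA, 21.04, 16.6 and 15.3 in GA+EPA and 17.6, 19.8 and 14.8 in CY. In CY+EPA, KZS15064.1 was at 17.88, 17.21 and 14.65 CPM, and in CRY at 19.9, 29.2 and 18.3. All GA libraries lay below all others here too, but the change in CRY against GA, 0.74 ± 0.17 (SE, adjusted p = 0.0145) (log2, edgeR), did not pass.

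Smaller changes were called in CRY against GA for a pair of intracellular enzymes. KZS09165.1, group XV phospholipase A2, a lysosomal enzyme in mammals, was at 30.02, 31.2 and 32.3 CPM in GA and 27.7, 27.6 and 27.4 in GA+EPA. In CY, KZS09165.1 was at 19.4, 24.6 and 21.6 CPM, in CY+EPA at 18.4, 23.2 and 19.8, and in CRY at 19.8, 22.98 and 24.1. GA lay above GA+EPA, and GA+EPA above the other 3 diets, which overlapped. The change of KZS09165.1 was -0.47 ± 0.09 (SE, adjusted p = 0.00502) in CRY against GA (log2, edgeR). KZS19389.1, a putative calcium-independent phospholipase A2-gamma, was at 32.9, 32.1 and 33.3 CPM in GA and 31.2, 34.9 and 33.7 in GA+EPA. In CY, KZS19389.1 was at 24.4, 27.5 and 36.6 CPM, in CY+EPA at 24.1, 27.9 and 26.5, and in CRY at 22.5, 25.5 and 25.5. The CRY libraries lay below both green algal groups but overlapped CY and CY+EPA. The change of KZS19389.1 was -0.40 ± 0.07 (SE, adjusted p = 0.00448) in CRY against GA (log2, edgeR). Both calls were lost without GA replicate 1, 2 or 3 and without CRY replicate 1.

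KZS07652.1, named after venom isozymes PA3A/PA3B/PA5, had the highest FPKM of the phospholipases A2 and was not called in any comparison. KZS07652.1 was at 11.7, 16.5 and 10.9 CPM in GA and 7.86, 4.90 and 10.6 in GA+EPA. In CY, KZS07652.1 was at 26.4, 1.33 and 15.1 CPM, in CY+EPA at 20.3, 10.8 and 18.5, and in CRY at 25.7, 17.8 and 20.9. CY replicate 2 stood far below the other CY libraries. All CRY values lay above all GA values (log2 0.74 ± 0.19 (SE, adjusted p = 0.0196), edgeR). By contrast, the calcium-independent phospholipase A2 VIA, KZS09174.1, had the smallest ratio of highest to lowest diet mean, 1.09, of the 25 genes.

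By name alone, 2 genes stand for the oxygenating enzymes, and the orthologous group of KZS06107.1 is described as a lipase. According to the paper, no lipoxygenase gene was known from *Daphnia* up to then. KZS18300.1, the putative cyclooxygenase (scaffold LRGB01000531.1, 119823 to 132913, minus strand), bears the name of the enzyme that makes prostaglandin H2 in vertebrates. KZS18300.1 was at 19.3, 14.5 and 17.2 CPM in GA and 5.61, 18.2 and 39.8 in GA+EPA. In CY, KZS18300.1 was at 13.4, 8.90 and 6.69 CPM, in CY+EPA at 12.2, 10.99 and 9.49, and in CRY at 11.3, 10.2 and 8.85. The GA+EPA libraries held both the lowest and the highest value of all 15. CY, CY+EPA and CRY lay below GA without overlap. In CRY against GA the change of KZS18300.1 was -0.73 ± 0.14 (SE, adjusted p = 0.00477) (log2, edgeR), a call lost without GA replicate 1 or 3 or CRY replicate 3, and in CY against GA -0.83 ± 0.26 (SE, adjusted p = 0.0784). The gene KZS06107.1, lipoxygenase by name and lipase by orthologous group, was at 247, 241 and 261 CPM in GA and 98.5, 266 and 329 in GA+EPA. In CY, KZS06107.1 was at 144, 155 and 97.6 CPM, in CY+EPA at 108, 42.4 and 143, and in CRY at 209, 198 and 215. It was low in GA+EPA replicate 1 and CY+EPA replicate 2, as the gut proteases were, and was not called against GA (CY -0.93 ± 0.17 (SE, adjusted p = 0.0137), CRY -0.25 ± 0.06 (SE, adjusted p = 0.0134), edgeR).

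**Figure D4:**
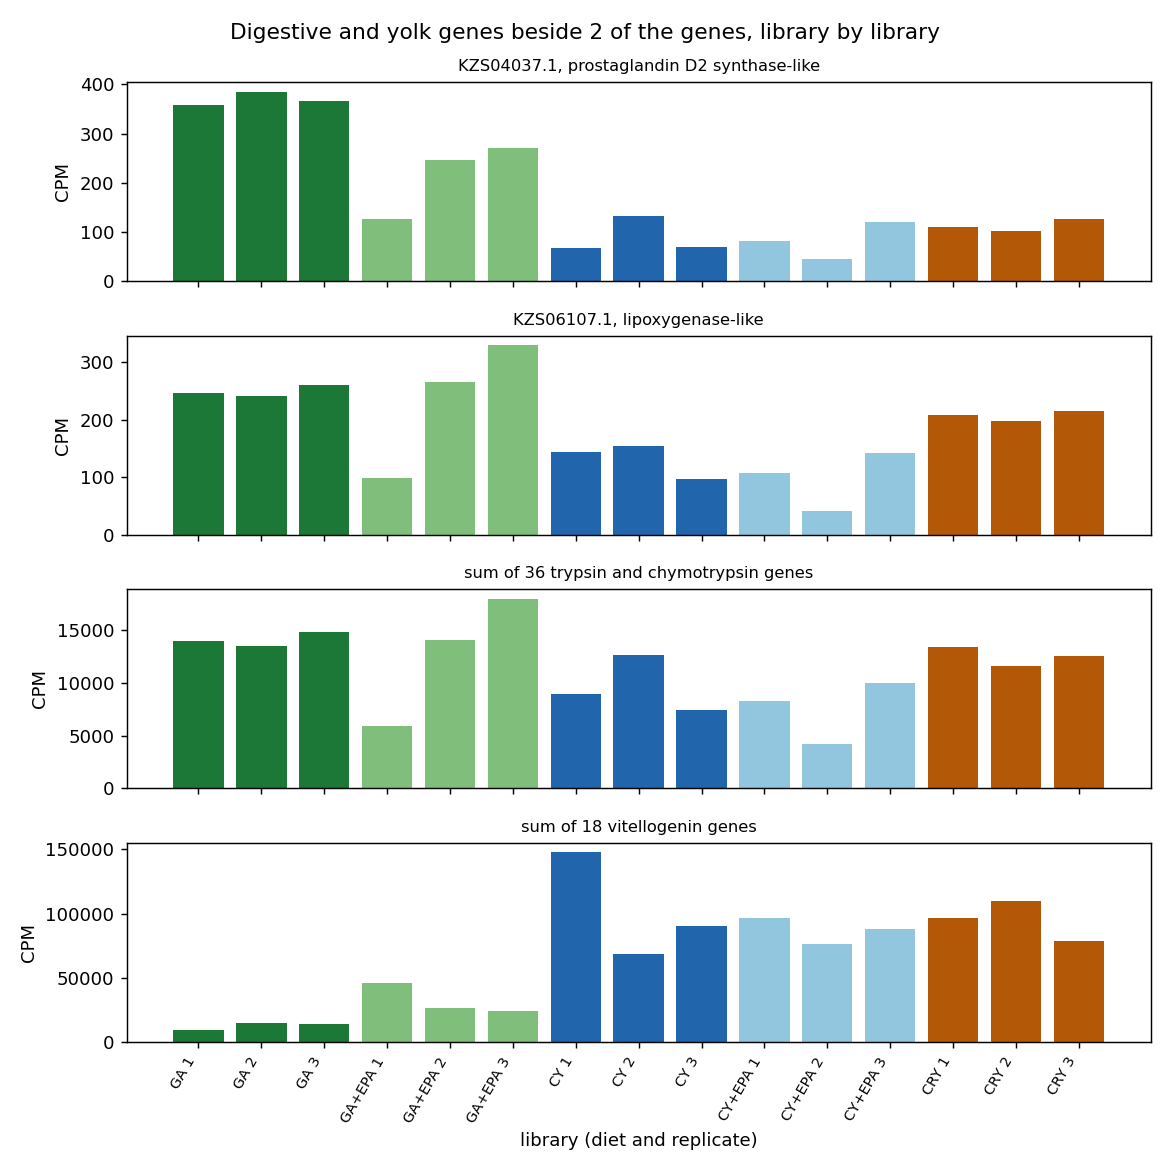
CPM (y axes, from 0) in each of the 15 libraries for KZS04037.1, KZS06107.1, the summed 36 trypsin and chymotrypsin genes and the summed 18 vitellogenin genes, coloured by diet. GA+EPA replicate 1 and CY+EPA replicate 2 have the lowest protease sums (5913 and 4207 CPM) and the lowest KZS06107.1 of their diets, and the vitellogenin sum is lowest in GA.

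Leukotriene A4 hydrolase converts leukotriene A4 into leukotriene B4 in vertebrates and also cleaves peptides. KZS18502.1 (scaffold LRGB01000512.1, 1054735 to 1057744, minus strand) was at 220.5, 233 and 224 CPM in GA and 146, 173 and 211 in GA+EPA. In CY, KZS18502.1 was at 163, 186 and 164 CPM, in CY+EPA at 173, 144 and 178, and in CRY at 184, 179.7 and 181. GA lay above all others, CRY lay above CY+EPA, and the remaining pairs of diets overlapped. The change of KZS18502.1 was small, -0.30 ± 0.05 (SE, adjusted p = 0.00415) in CRY and -0.42 ± 0.08 (SE, adjusted p = 0.0185) in CY (log2 against GA, edgeR), and only that in CRY was called. The other gene of this name, KZS12840.1, was at 136, 90.5 and 102 CPM in GA and 31.9, 134 and 218 in GA+EPA. In CY, KZS12840.1 was at 33.7, 72.3 and 71.8 CPM, in CY+EPA at 51.6, 16.8 and 101, and in CRY at 69.2, 62.5 and 50.3. Its spread within GA+EPA and CY+EPA was wide, with the lowest values again in GA+EPA replicate 1 and CY+EPA replicate 2. KZS12840.1 was called in CRY against GA, at -0.84 ± 0.16 (SE, adjusted p = 0.00629) (log2, edgeR). The calls of both hydrolases in CRY were lost without GA replicate 1 or 3 and without CRY replicate 1 or 3, and that of KZS18502.1 also without GA replicate 2. Of the 19 other tested genes in the orthologous group of KZS12840.1, 5 were lower and 2 higher in CRY than in GA by the same rule. Of all genes, 9.59% were called lower and 6.62% higher there.

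The receptors KZS13558.1, KZS18974.1 and KZS13723.1 were too scarce to be tested in any comparison. The highest of the 5 receptors, KZS02991.1, named as the EP4 receptor for prostaglandin E2, had between 10 and 45 expected counts per library. KZS02991.1 was at 1.81, 1.56 and 1.63 CPM in GA and at 0.650, 0.751 and 1.12 in CY, without overlap. The change was -0.996 ± 0.26 (SE, adjusted p = 0.0486) in CY against GA (log2, edgeR), which did not pass. Its 95% interval, -1.62 to -0.37, lay wholly below 0. Neither of the tested receptors, KZS02991.1 and KZS19155.1, was called in any comparison.

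EPA supplied in liposomes changed no gene past the threshold. In GA+EPA against GA, 0 of 22 were called by edgeR (0% of all genes), and 8 were at an unadjusted p under 0.05, or 36.4% of them beside 18.4% of all genes. The groups did not overlap for 10 of the 22 (45.5%), beside 27.9% of all genes. DESeq2 also called 0 of the 22, and 2.51% of all genes. In CY+EPA against CY, 0 of 21 were called by edgeR (0% of all genes), and 0 were at an unadjusted p under 0.05, beside 1.93% of all genes. DESeq2 called 0 of the 21 there, and 0.0282% of all genes. On GA, KZS03568.1 was at -0.96 ± 0.34 (SE, adjusted p = 0.216) and KZS04037.1 at -0.76 ± 0.27 (SE, adjusted p = 0.222) (log2, edgeR), and in both the groups did not overlap. Without GA+EPA replicate 1 the difference of KZS04037.1 was -0.49 ± 0.07 (SE, adjusted p = 0.0275) and that of KZS03568.1 -0.66 ± 0.15 (SE, adjusted p = 0.0588) (log2, edgeR). In the same fit KZS18300.1 was at 0.79 ± 0.28 (SE, adjusted p = 0.166) and KZS12840.1 at 0.71 ± 0.22 (SE, adjusted p = 0.119), larger in size but with wider errors (log2, edgeR). Some directions depended on 1 library, among them these: KZS18300.1 went from 0.34 to -0.49 and KZS12840.1 from 0.25 to -0.37 without GA+EPA replicate 3, and KZS06107.1 from -0.09 to 0.28 without GA+EPA replicate 1 (log2). On CY, the interval of the difference was -1.11 to 0.85 for KZS04037.1, -0.80 to 1.11 for KZS03568.1 and -0.38 to 0.11 for KZS20464.1 (log2, 95%).

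The difference between the EPA effects on the 2 foods was itself tested over 12 libraries. It called 0 of 22 genes with edgeR (0% of all genes), and DESeq2 called 0 as well (0.263% of all genes). At an unadjusted p under 0.05 there were 3 of 22, or 13.6%, beside 10.8% of all genes. KZS08312.1 had the largest difference of the 3. With EPA it changed by -0.44 on GA and by 0.46 on CY (log2), a difference of -0.92 ± 0.26 (SE, adjusted p = 0.309) (edgeR).

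Where both foods carried EPA, CY+EPA against GA+EPA called 0 of 21 genes with edgeR, beside 0.147% of all genes, and 12 of 21 were at an unadjusted p under 0.05, beside 20.8%. DESeq2 called 3, beside 3.56% of all genes. KZS20464.1 was at -1.27 ± 0.22 (SE, adjusted p = 0.0514) and KZS08312.1 at -0.85 ± 0.14 (SE, adjusted p = 0.0481) (log2, edgeR), and the libraries did not overlap in either. CRY and CY, both away from the green alga, were compared as well. In CRY against CY edgeR and DESeq2 each called 0 of 21 (0% of all genes by edgeR and 1.13% by DESeq2), and edgeR had 3 at an unadjusted p under 0.05, beside 15.6% of all genes. In CRY against CY+EPA edgeR called 0 of 21 (0.162% of all genes), with 6 at an unadjusted p under 0.05 (28.6%, beside 27.4% of all genes), and DESeq2 called 1, beside 5.64% of all genes.

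Genes that act around the pathway were followed as 11 lists of product names holding 133 genes. In CY against GA, 26 of 120 tested were called, 5 higher and 21 lower (21.7%, beside 5.99% of all genes). In CRY against GA, 36 of 120 were called, 11 higher and 25 lower (30.0%, beside 16.2%). The cytochromes P450, a family whose members epoxidise or hydroxylate fatty acids among many other substrates, had 9 lower and 1 higher of 27 in CY, and 10 lower and 1 higher of 27 in CRY. KZS10130.1 (putative cytochrome P450 9f2) was at -2.96 ± 0.23 (SE, adjusted p = 0.00082) and -3.21 ± 0.20 (SE, adjusted p = 2.17e-05), respectively (log2, edgeR). Carbonyl reductase 1 also reduces prostaglandin E2 in mammals, and 2 of 5 genes of this list were lower in each comparison. KZS07833.1 was at -1.99 ± 0.10 (SE, adjusted p = 0.000305) in CY and -1.86 ± 0.06 (SE, adjusted p = 1.12e-06) in CRY (log2, edgeR). Of the haem peroxidases, the wider superfamily of cyclooxygenase, those called were all higher: 2 of 24 in CY and 6 of 24 in CRY. The putative peroxinectin KZS04030.1 was at 3.69 ± 0.49 (SE, adjusted p = 0.00414) in CY and 2.85 ± 0.38 (SE, adjusted p = 0.00099) in CRY (log2, edgeR), whereas the putative cyclooxygenase was lower in CRY. Of the glutathione S-transferases, 4 were lower and 1 higher of 13 in each comparison. Of the phospholipases other than A2, 4 of 17 were lower in each comparison, and none was higher. The list meant for gamma-glutamyltransferases caught protein-crosslinking transglutaminases (glutamine gamma-glutamyltransferases), of which 2 were higher and 2 lower of the 8 tested in CRY. The lists of fatty acid binding, transport, epoxide hydrolysis, endocannabinoid lipases and acyl return to phospholipids held 2, 9, 2, 9 and 4 tested genes. At most 1 gene of each of these lists was called in either comparison. In GA+EPA against GA, edgeR called 0 of the 122 tested genes (0% of all genes), with 26 at an unadjusted p under 0.05, beside 18.4% of all genes. In CY+EPA against CY it called 0 of 119 (0% of all genes), with 4 at an unadjusted p under 0.05, beside 1.93% of all genes.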

How the data were processed

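Whole *D. magna* were sequenced as 15 RNA-seq libraries, 3 per diet by the sample labels. The authors trimmed reads with Trimmomatic, mapped them with Bowtie2 to the *D. magna* genome and quantified genes with RSEM 1.2.31. The authors deposited expected counts (RSEM's estimated counts, not normalised) and FPKM (per length and library total) for 26646 genes, 1 of which had no annotation entry. Deposited TPM was not used. Names and positions come from the authors' annotation, and none of the 25 genes matched the RefSeq table.

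Rounded counts went into edgeR 4.0.16 under R 4.3.3 (filterByExpr, TMM, glmQLFit, glmQLFTest) on the libraries of the compared diets. P-values were adjusted over all genes tested and called at 0.01. Intervals are 95%. CPM used TMM totals over all libraries, and the lists of related genes and markers were patterns in product names. Pools are the replicates, and p-values test a difference between diets against the spread between pools. Alternatives used DESeq2 1.42.0, limma 3.58.1 on log2(FPKM + pseudocount), other filters and scalings, a replicate block and left-out libraries. The test was tried on simulated counts. Genes called in any comparison, and the one with the highest FPKM of the others in each role, are named. The genes and lists were chosen with earlier results of these data known.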

Additional observations from a re-analysis of the deposited data

How the results depend on the processing

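No called change reversed under the alternatives run. Among uncalled differences, some directions turned, among them those of KZS18300.1, KZS12840.1 and KZS06107.1 in GA+EPA against GA given above. In CY+EPA against CY, KZS04037.1 went from -0.13 to 0.28 without CY replicate 2, and the median of the eicosanoid genes from -0.05 to 0.07 without CY replicate 3 (log2). The counts of called genes that moved by over 1.5 times were as follows. In CY against GA (5, and 854 of all genes), DESeq2 gave 8 (all genes 1794), the replicate block 2 (173) and an adjusted p of 0.05 9 (2059), and left-out libraries gave 1 to 6. In CRY against GA (10, and 2319), 1 fit of all 15 libraries gave 4 (851) and an adjusted p of 0.05 16 (4314), and left-out libraries gave 5 to 13. In CY+EPA against GA+EPA (0, and 21), DESeq2 gave 3 (508), 1 fit of all libraries 2 (362) and an adjusted p of 0.05 1 (219). In CRY against GA+EPA (1, and 224), DESeq2 gave 3 (1392), 1 fit of all libraries 2 (503), the replicate block 0 (2) and an adjusted p of 0.05 4 (1567), and left-out libraries gave 0 to 6, the 6 without GA+EPA replicate 1. In CRY against CY+EPA (0, and 23), DESeq2 (799) and an adjusted p of 0.05 (807) each gave 1. In the test over 5 diets (6), left-out libraries gave 3 to 7. The cause of these shifts was not tested. RLE scaling, no filter, at least 10 counts and limma on log2(FPKM + 0.1) or log2(FPKM + 1) kept each count within 1.5 times. On log2(FPKM + 0.1), which has no TMM scaling, the median of all genes lay at -0.18 in CY and -0.17 in CRY against GA, with the medians of the tested eicosanoid genes at -0.69 and -0.56. Counts without vitellogenin genes, or without GA+EPA replicate 1 and CY replicate 1, were added after seeing the data and also stayed within 1.5 times.

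Whether the replicate numbers pair the libraries was not settled, because libraries of different number were not compared. Deviations of same-numbered libraries correlated from -0.243 to 0.484. The block took away the CY against GA calls of KZS08312.1 (-1.80), KZS04037.1 (-2.12) and KZS16890.1 (1.16, log2). With 3 libraries per diet, the spread between pools limits what can be called, and the receptors rest on few counts.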

Other observations

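The orthologous group that holds 3 of the prostaglandin D synthases has 2 further genes, both named as glutathione S-transferases. The abundant one, KZS14640.1, named glutathione S-transferase S1, lies next to the scarce D synthase KZS14639.1 on its scaffold. KZS14640.1 was at -0.95 ± 0.16 (SE, adjusted p = 0.00969) in CY and -0.58 ± 0.09 (SE, adjusted p = 0.00244) in CRY against GA (log2, edgeR). On the same stretch, the glutathione S-transferase A4 gene KZS14637.1, of another orthologous group, was at -3.80 ± 0.32 (SE, adjusted p = 0.00106) in CY and -3.25 ± 0.33 (SE, adjusted p = 0.00023) in CRY against GA (log2, edgeR), chosen after its values were seen.

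A further 3 genes fall outside the name rule although their annotation points to phospholipase A2. KZS11852.1, named as a lola-like protein, was at 0.25 ± 0.08 in CY and 0.34 ± 0.08 in CRY against GA (log2, SE), and KZS18868.1, named GXIVsPLA2, at -0.01 ± 0.13 and 0.14 ± 0.10. The edgeR test called neither, and KZS15886.1 did not pass the filter on low counts.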
